A study of Mus musculus with 2 samples.

Results

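Iron storage and transport was followed through 9 genes of the mouse embryonic heart, chosen by name from the 17646 genes listed in the deposited tables. They are the ferritin heavy chain Fth1, the ferritin light chain Ftl1 and its near-identical copy Ftl1-ps1, transferrin (Trf), the transferrin receptor (Tfrc), the importer Slc11a2, the exporter Slc40a1, and the iron regulatory proteins Aco1 and Ireb2. Whole hearts at embryonic day 13.5 gave 1 wild-type and 1 SRSF10-/- library, and the strain background of both was BALB/c. SRSF10 belongs to the SR proteins, which regulate splicing. The labels used here do not give the number or sex of the embryos, how the allele was made, or whether hearts were pooled. All 9 genes were listed in both libraries and reached 1 RPKM (reads per kilobase of gene length per M library reads).

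Cells take up iron when transferrin, the iron carrier of plasma, binds the transferrin receptor and is internalised. Iron then leaves the endosome through Slc11a2 (DMT1), is stored inside ferritin, a shell of heavy and light chains, or leaves the cell through ferroportin (Slc40a1). In iron-poor cells, the iron regulatory proteins bind a hairpin in mRNA called the iron-responsive element. A hairpin in the 5′ UTR then blocks translation, as in ferritin mRNA, while hairpins in the 3′ UTR of transferrin receptor mRNA protect it from decay. The developing heart uses iron for mitochondrial respiration and for the myoglobin of its muscle.

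The libraries held 39.61 M and 38.89 M uniquely mapped reads in wild type and knockout. Srsf10 had 5245 reads in wild type and 212 in knockout, 4.12% of the wild-type level. The cardiac troponin T gene Tnnt2 stood at 2940 and 2305 RPKM, and the 10 cardiomyocyte markers summed to 16439 and 14739 RPKM, so the defining markers of heart muscle were abundant in both. The Y-linked genes Ddx3y, Eif2s3y, Kdm5d and Uty had 2943 reads in wild type and 7 in knockout, and sex and genotype cannot be told apart here. Each group has a single library, so differences have no replicate check and no test was run. Ratios are reads per library read, knockout over wild type. Their 95% intervals are exact binomial (Clopper-Pearson) intervals that cover only the counting error of independent reads. They are too narrow if reads of the same fragment were counted apart, which was not tested. In bulk tissue, fewer cells of a type and less RNA per cell cannot be told apart.

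The hairpins that tie these genes together are shown first, because ferritin, ferroportin and the transferrin receptor share them. The reference transcripts (GENCODE M21, build GRCm38) were searched for a C, any 5 bases, the loop CAGTGN and 5 bases that pair with the first 5, G with T allowed. Of the 9 members, 5 held at least 1 match, with Ftl1 and Ftl1-ps1 counted apart. Among the 12177 expressed genes that have a reference transcript, 2.31% held one. The pattern describes the hairpin already known from ferritin, ferroportin and the transferrin receptor, so the higher share among members was built in. The sequences are written 5′ to 3′ with the loop in capitals. A match is a description of the letters and was not read as a site bound in these hearts.
Fth1, 5′ UTR, chr19:9982732-9982760, plus strand: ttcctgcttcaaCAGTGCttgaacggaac
Ftl1, 5′ UTR, chr7:45459779-45459807, minus strand: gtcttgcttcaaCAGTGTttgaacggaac
Ftl1-ps1, 5′ UTR, chr13:74406428-74406456, plus strand: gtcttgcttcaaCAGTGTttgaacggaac
Slc40a1, 5′ UTR, chr1:45925465-45925493, minus strand: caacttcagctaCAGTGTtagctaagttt
Tfrc, 3′ UTR, chr16:32631219-32631247, plus strand: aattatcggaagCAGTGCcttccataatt
Tfrc, 3′ UTR, chr16:32631598-32631626, plus strand: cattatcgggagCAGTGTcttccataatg
Tfrc, 3′ UTR, chr16:32631663-32631691, plus strand: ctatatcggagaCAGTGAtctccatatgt
Tfrc, 3′ UTR, chr16:32631710-32631738, plus strand: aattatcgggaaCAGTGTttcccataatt

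The light chain copies carry the same 29 bases at this place. Tfrc held 4 matches, all in its 3′ UTR, and the other members with a match held theirs in the 5′ UTR. No match was found in Slc11a2, Trf, Aco1 or Ireb2, which says only that these letters are not in their transcripts. Of 6 other transcripts listed as having a reported iron-responsive element, 2 held a match. The lack of a match therefore does not show that a gene has no such element.

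Across the 9 genes, the storage genes were by far the most abundant. In the wild-type library, RPKM ran from 2.21 for Trf to 1124 for Fth1, and in the knockout library from 2.26 for Trf to 905 for Fth1. Fth1 ranked 32 of the 12329 expressed genes in wild type and 43 in knockout. A gene is called expressed where either library reached 1 RPKM. Transport and regulatory genes lay between 2.21 and 22.6 RPKM in wild type.

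**Figure D1:**
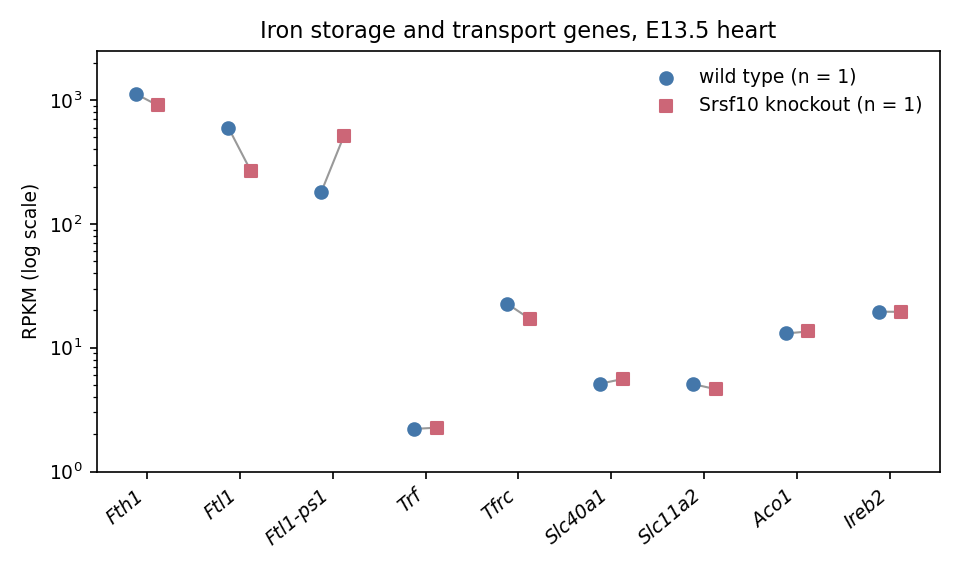
RPKM on a log axis for each of the 9 genes, with 1 point for the wild-type library and 1 for the knockout library. Ftl1 went from 597 to 268 RPKM and Ftl1-ps1 from 182 to 509, while the other genes changed place little on this axis.

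Fth1 (ENSMUSG00000024661, chromosome 19) encodes the ferritin heavy chain, which carries the ferroxidase activity that oxidises iron for storage. The wild-type library held 38575 of its reads and the knockout library 30460. Per length this was 1124 and 905 RPKM. The knockout library was lower by 1.24-fold (1.22 to 1.26). Among expressed genes, 14.7% had a larger absolute ratio on the log2 scale of RPKM + 1. Of the 31-base words of its longest transcript (2062 bases), 5.71% occur in other genes. The listed length of Fth1 is 866 bases, so the share over the counted part may differ. Reads covered 99.54% and 99.65% of this listed length.

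Ftl1 (ENSMUSG00000050708, chromosome 7) encodes the ferritin light chain, which helps build the iron core and lacks ferroxidase activity. It had 22887 reads (597 RPKM) in wild type and 10096 reads (268 RPKM) in knockout. The knockout level was 2.23-fold lower (2.17 to 2.28). Ftl1-ps1 (ENSMUSG00000062382, chromosome 13), a retrogene copy annotated as protein-coding in M21, differed in the other direction. It had 6652 reads (182 RPKM) in wild type and 18258 reads (509 RPKM) in knockout, 2.80-fold higher (2.72 to 2.88). The light chain copies had the largest ratios of the 9 genes, with opposite signs.

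Summed over both copies, the light chain was almost the same in the libraries. The sum was 29539 reads in wild type and 28354 in knockout, a ratio of 0.978 (0.962 to 0.994). Per M library reads, Ftl1 was lower by 318 in knockout and Ftl1-ps1 was higher by 302. Ftl1 took 77.5% of the light chain reads in wild type (Wilson 95% interval 77.0 to 78.0) and 35.6% in knockout (35.1 to 36.2). The light chain as 1 feature thus differed by 1.02-fold, while the copies taken apart differed by more than 2-fold in opposite directions.

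**Figure D2:**
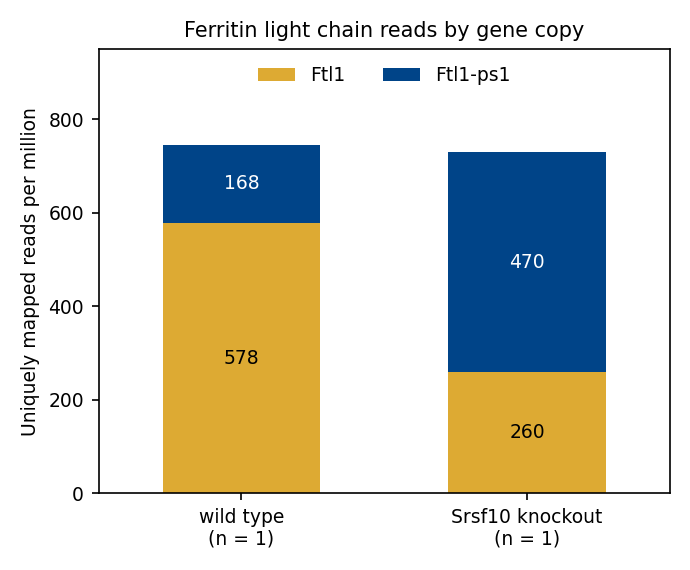
Uniquely mapped reads per M library reads counted for Ftl1 and Ftl1-ps1, stacked, in the wild-type and the knockout library (1 library each). The bars reach 746 and 729, with Ftl1 at 578 and 260 and Ftl1-ps1 at 168 and 470.

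The transcript sequences of the copies differ at few places. The Ftl1 transcript (968 bases, 4 exons) and the Ftl1-ps1 transcript (938 bases, 1 exon) align over 910 bases without a gap and differ at 4 of them, an identity of 99.6%. Counting from 1 at the first base of the Ftl1 transcript, with the Ftl1 base first, the differences are A196G in the 5′ UTR, G721A and G757A in the coding part, and A817G in the 3′ UTR. Both coding differences fall on position 3 of a codon and keep the amino acid, so the reference copies encode the same 183 residues. Ftl1 also starts 58 bases earlier. In the genome its transcript is split over 4 exons, and how reads over its exon junctions were aligned was not tested. The 4 windows below, each 21 bases with the differing base in capitals, are the places inside the aligned stretch where the transcript sequences differ.
Ftl1 A196G, chr7:45459679-45459699, minus strand: cgctgccttcAgctcctagga
Ftl1-ps1 A196G, chr13:74406536-74406556, plus strand: cgctgccttcGgctcctagga
Ftl1 G721A, chr7:45458181-45458201, minus strand: gcagggtggcGgggccacaac
Ftl1-ps1 G721A, chr13:74407061-74407081, plus strand: gcagggtggcAgggccacaac
Ftl1 G757A, chr7:45458145-45458165, minus strand: cgccccagggGtctctgggcg
Ftl1-ps1 G757A, chr13:74407097-74407117, plus strand: cgccccagggAtctctgggcg
Ftl1 A817G, chr7:45458085-45458105, minus strand: aggcctctgtAccttccaagg
Ftl1-ps1 A817G, chr13:74407157-74407177, plus strand: aggcctctgtGccttccaagg

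**Figure D3:**
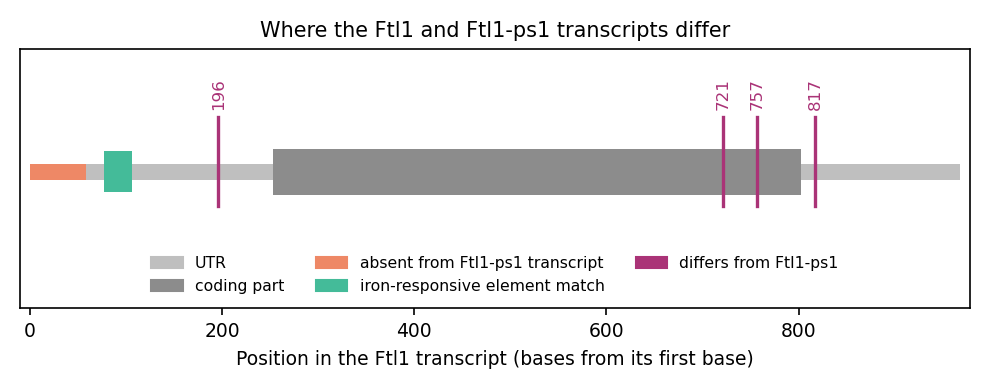
Map of the Ftl1 reference transcript, in bases from its first base, with its UTRs, coding part, iron-responsive element match and the places where Ftl1-ps1 differs. The differences sit at 196, 721, 757 and 817, so the first and the next are 525 bases apart.

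Of the 938 words of 31 bases in the Ftl1 transcript, 182 (19.4%) are absent from the Ftl1-ps1 transcript, and 94.9% occur in some other gene. For Ftl1-ps1, 94.3% of its words occur elsewhere. The read length is not given in the sources used here. With words of 50, 75 or 100 bases, those that separate Ftl1 from Ftl1-ps1 span 41.4%, 53.2% and 60.95% of the Ftl1 transcript. The deposited tables give reads over 89.77% of the Ftl1 length in wild type and 87.09% in knockout, and over 88.18% and 90.24% of the Ftl1-ps1 length. How these reads were assigned between the copies was not tested, nor were the BALB/c bases at the differing positions.

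Other reference genes share much sequence with the light chain. In all, 14 have at least 20% of their words in Ftl1, and of these Ftl1-ps1 alone is in the deposited tables. The others are 4 processed pseudogenes, 7 short miRNA annotations, 1 antisense gene and 1 gene whose type is still to be determined. A further 7 listed genes with at least 100 reads share between 0.0713% and 0.395% of their words with Ftl1-ps1. They are Zfp825, Zfp125, Zfp934, Zfp808, Gm5141, Zfp958 and Zfp933, with 117 to 644 reads in wild type.

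Relative to the light chain, the heavy chain was lower in knockout. Fth1 had 1.31 reads for each light chain read of both copies in wild type and 1.07 in knockout, a ratio of 0.823 (0.805 to 0.841). Per length, the same quotient was 1.44 in wild type and 1.16 in knockout. Set against Ftl1 alone, Fth1 had 1.69 reads for each Ftl1 read in wild type and 3.02 in knockout, so the direction turns when the copy is left out. All ferritin reads together made up 0.172% of the wild-type library and 0.151% of the knockout library.

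Iron uptake genes differed in the receptor and hardly in the carrier. Tfrc (ENSMUSG00000022797, chromosome 16), the receptor for iron-loaded transferrin, had 4381 reads (22.6 RPKM) in wild type and 3257 reads (17.1 RPKM) in knockout. It was 1.32-fold lower (1.26 to 1.38) in the knockout library, and none of its words occur in other genes. Trf (ENSMUSG00000032554, chromosome 9), made mainly by the liver, had 225 and 226 reads, or 2.21 and 2.26 RPKM. Its ratio of 1.02 has an interval of 0.847 to 1.24, so a difference of less than about that size was not detectable at this depth. Of the Trf words, 80.7% also occur in Gm20425, which had 4 reads in wild type and 0 in knockout, and reads covered 49.82% and 42.94% of the Trf length.

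Slc11a2 (ENSMUSG00000023030, chromosome 15), the divalent metal transporter that moves iron out of endosomes, had 889 reads (5.08 RPKM) in wild type and 794 (4.62 RPKM) in knockout. Its ratio was 0.910 (0.826 to 1.002). Slc40a1 (ENSMUSG00000025993, chromosome 1), the iron exporter ferroportin, had 686 reads (5.12 RPKM) and 734 reads (5.58 RPKM), a ratio of 1.09 (0.981 to 1.21). Both intervals include 1, although that of Slc11a2 was 0.823 to 0.999 with DESeq2 size factors, and the transporters lay at close RPKM in each library.

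The iron regulatory proteins were nearly level. Aco1 (ENSMUSG00000028405, chromosome 4) encodes a cytosolic aconitase that binds iron-responsive elements when it lacks its iron-sulphur cluster. It had 2246 reads (13.0 RPKM) in wild type and 2288 (13.5 RPKM) in knockout, a ratio of 1.04 (0.979 to 1.10). Aco1 and Srsf10 are both annotated on chromosome 4. Ireb2 (ENSMUSG00000032293, chromosome 9), the iron regulatory protein that is removed by protein degradation when iron is plentiful, had 4492 reads (19.52 RPKM) and 4402 reads (19.49 RPKM), a ratio of 0.998 (0.957 to 1.04). Ireb2 had the smallest absolute ratio of the 9 genes. The intervals of both genes include 1. Per length, Aco1 stood at 0.668 of Ireb2 in wild type and 0.694 in knockout.

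**Figure D4:**
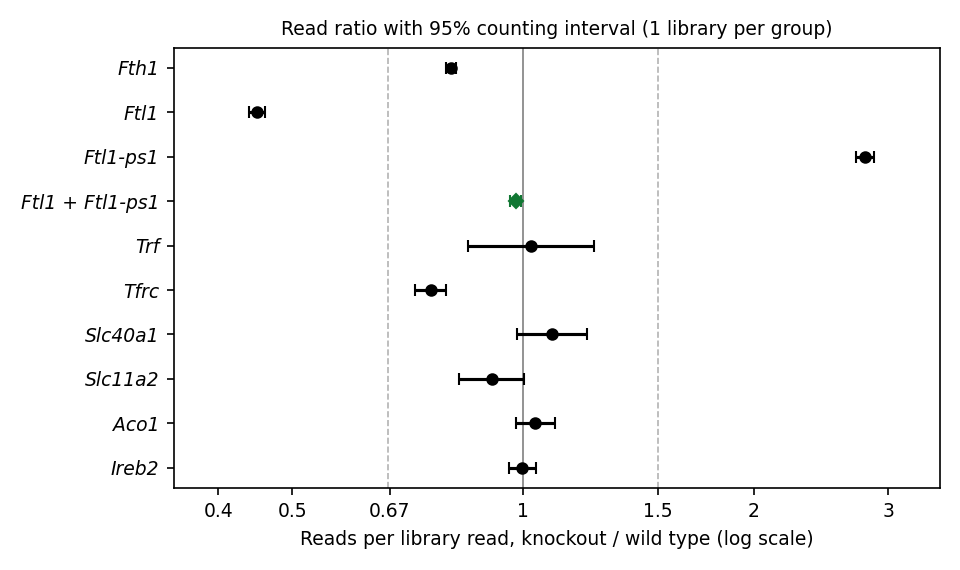
Read ratio of each gene, and of Ftl1 and Ftl1-ps1 summed, knockout over wild type on a log axis, with 95% counting intervals (1 library per group) and dashed lines at 1.5-fold in each direction. Ftl1 lies at 0.449 and Ftl1-ps1 at 2.80, outside the dashed lines, their sum at 0.978, and every other gene between 0.757 and 1.09.

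Counted over the 9 genes, 2 differed by at least 1.5-fold on the scale of RPKM + 1, where 2.95% of expressed genes did so. They were Ftl1-ps1, higher, beside 1.52% of expressed genes, and Ftl1, lower, beside 1.44%. Both were also past 2-fold, where 0.543% of expressed genes were, 0.211% higher and 0.333% lower. With the copies summed to 1 feature, none of 8 reached 1.5-fold. At a looser rule of 5 to 4 in either direction, 3 of 9 genes differed, beside 13.9% of expressed genes. Ftl1-ps1 was higher by that much, beside 6.95% of expressed genes, and Ftl1 and Tfrc were lower, beside 6.98%. With the copies summed, Tfrc was the 1 gene of 8 past this rule, a share near that of all genes. The median log2 ratio was 0.00 over the 9 genes and -0.01 over all expressed genes.

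Other genes of iron handling, listed by role, were mostly close. Of 78 genes, 76 were listed and 60 passed the RPKM filter. Only 1 of the 60 differed by at least 1.5-fold, which was higher, beside 1.52% of expressed genes higher by that much. Their median log2 ratio was -0.03, with 27 above 0 and 33 below, beside 5943 above and 6386 below over the 12329 expressed genes. The gene past 1.5-fold was Hmox1, heme oxygenase, which frees iron from heme. It went from 14.4 to 22.2 RPKM, a read ratio of 1.54 (1.41 to 1.67), and its value of 1.502 on the RPKM + 1 scale sits just past the threshold.

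Iron uptake genes other than the members had a median log2 ratio of 0.07 over 7 genes. The most abundant, Slc22a17, a lipocalin receptor, was 1.05-fold lower (1.001 to 1.09), and Slc39a8, a metal importer of the ZIP family, was 1.21-fold higher (1.13 to 1.31). Export and systemic control genes had a median of 0.09 over 6 genes. Bmp6, which in adult liver signals for hepcidin production, was 1.41-fold lower (1.28 to 1.55), and Neo1, neogenin, was 1.09-fold higher (1.05 to 1.13). Hepcidin itself (Hamp) had 3 reads in wild type and 10 in knockout, a ratio of 3.40 with an interval of 0.874 to 19.2.

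Storage and cytosolic handling genes had a median of 0.00 over 8 genes. Pcbp1, an RNA-binding protein that also delivers iron to ferritin, was the most abundant and 1.11-fold lower (1.08 to 1.14). Ncoa4 guides ferritin to the lysosome for iron release, and it went from 28.0 to 28.7 RPKM. Fbxl5 is the ubiquitin ligase subunit that removes Ireb2 protein, and it went from 11.1 to 10.8 RPKM. Ncoa4 and Fbxl5 were added here after their values were seen.

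Mitochondrial iron and iron-sulphur cluster genes had a median of -0.07 over 16 genes, with 13 below 0 and none past 1.5-fold, where 6386 of the 12329 expressed genes lay below 0. Glrx5, a glutaredoxin that passes on iron-sulphur clusters, was 1.24-fold lower (1.15 to 1.33), and the mitochondrial chaperone Hspa9 was 1.12-fold lower (1.10 to 1.14). The heme genes had a median of -0.01 over 18 genes. Alas2, the first enzyme of heme synthesis in red cell precursors, was lower, at a ratio of 0.691 (0.640 to 0.747).

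Among the named genes with a match in the 5′ UTR, Fth1 and Alas2 were lower, the summed light chain was within 1.02-fold, and the interval of Slc40a1 includes 1. The 6 other transcripts listed as having a reported iron-responsive element had a median log2 ratio of -0.07, and none was past 1.5-fold.

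**Figure D5:**
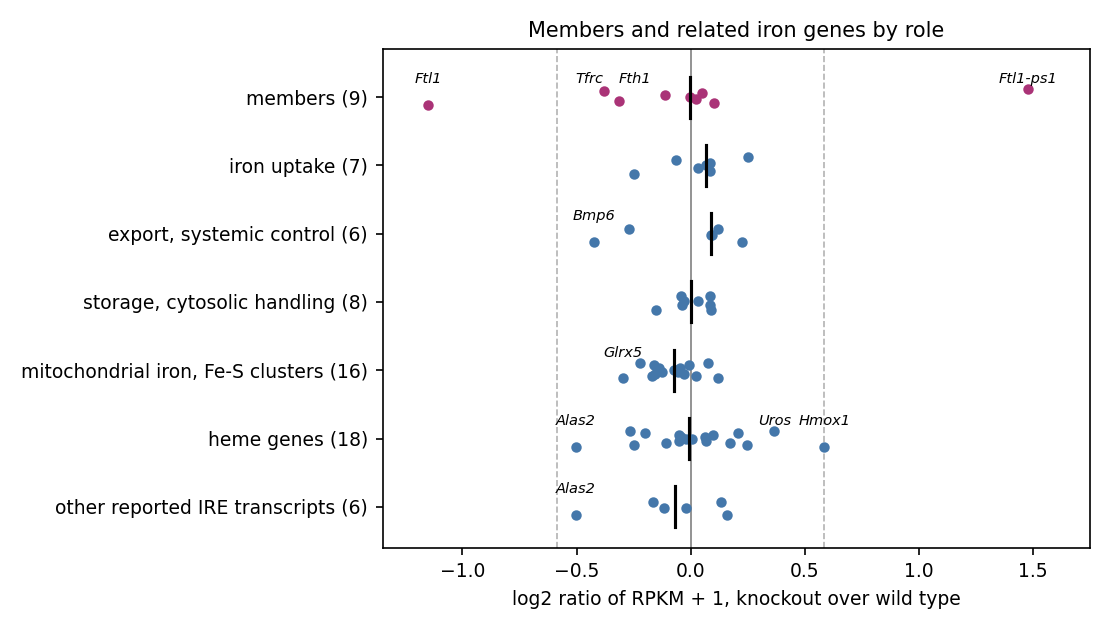
Log2 ratio of RPKM + 1, knockout over wild type, for the 9 members and for the related iron genes that passed the filter, grouped by role with the number of genes in brackets. Each point is 1 gene, black bars are medians, dashed lines mark 1.5-fold, and IRE stands for iron-responsive element. Outside the light chain copies, Hmox1 alone reaches a dashed line.

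Several of these genes are abundant in cell types that share the heart with its muscle. Red cell precursors carry much Tfrc. The 10 erythroid markers summed to 40.4 RPKM in wild type and 36.8 in knockout, with 8 of 10 higher in knockout and none at 0. Slc4a1, the red cell anion exchanger, had a ratio of 1.05 (0.982 to 1.12). Alas2 belongs to this list and gave 20.2 RPKM of its sum in wild type and 14.0 in knockout. Macrophages recycle iron through Hmox1 and Slc40a1. The 11 macrophage markers summed to 74.1 and 97.6 RPKM, with 10 of 11 higher in knockout, and their summed reads had a ratio of 1.30 (1.253 to 1.342). Their part in the values of Tfrc, Hmox1 and Slc40a1 was not tested.

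Hepatocytes are the main source of plasma transferrin. Of 10 hepatocyte markers, 9 were listed, and their summed level was 7.32 RPKM in wild type and 4.83 in knockout, with 4 higher and 5 lower. Albumin (Alb) had 88 reads in wild type and 0 in knockout, Serpina1a had 2 and 0 reads, and alpha-fetoprotein (Afp) had 145 and 4 reads. Apoa1 (19 and 2 reads) and Ahsg (79 and 68) were also lower. The 4 higher were Ttr (22 and 34 reads), Apoa2 (39 and 42), Hamp (3 and 10) and Apoh. Apoh had 4 reads in each library and was higher only per library read. Trf had 225 and 226 reads beside them. Fibroblast and cushion mesenchyme markers were lower in all 7 members, from 856 to 602 RPKM in sum, and endothelial markers summed to 337 and 329 RPKM. The 6 markers of Schwann cells and glia, which also make transferrin, summed to 9.37 and 8.98 RPKM, with Foxd3 at 2 and 0 reads. The part of these cell types in the values of the 9 genes was not tested.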

How the data were processed

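Total RNA of whole embryonic hearts was sequenced as 1 wild-type and 1 knockout library. The submitters' processing notes name Bowtie 0.12.2 and the mm9 genome. The sources used here do not state the annotation release, read length, filters or use of strand. Per the file headers, the authors counted uniquely mapped reads for each gene. The authors also deposited RPKM, which equals the count over listed length and library total, and coverage, a signal giving the percent of the listed length under reads. A gene absent from a table was taken as 0.

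Symbols came from Ensembl identifiers (17196 of 17646 matched). Calls used log2 of RPKM + 1 for the 12329 genes that reached 1 RPKM in either library. Ratios used counts with exact 95% intervals, which cover only the counting error of independent reads. Without molecular identifiers, reads cannot be taken as independent molecules. The interval method was tested on simulated data in which reads were independent. With 1 library per group no count model was fitted. Words, alignments (Biopython 1.88) and hairpin matches used GENCODE M21 transcripts of GRCm38, a different build from the alignment, so mm9 positions are not given. All 9 members are named; of each role in the related list, the most abundant gene, the one with the largest ratio and any past 1.5-fold are named, except that some are not reported here. Members and lists were chosen with earlier results of these data known. Alternatives were pseudocounts of 0.1 and 5, other filters and fold rules, edgeR 4.0.16 TMM and DESeq2 1.42.0 scaling, and a total without mitochondrial and globin genes.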

Additional observations from a re-analysis of the deposited data

How the results depend on the processing

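The count of 2 members past 1.5-fold was kept under both other pseudocounts, both other filters, the 2-fold rule and 3 rescalings, and was 3 at the looser rule of 5 to 4. It became 0 of 8 with the light chain copies summed and 0 of 6 without Ftl1, Ftl1-ps1 and Trf, alternatives added after the data were seen that take out both genes. The 1 related iron gene past 1.5-fold, Hmox1, became 0 with a pseudocount of 5, 0 under DESeq2 factors and 0 at 2-fold. At 5 to 4 the count was 4 of 60, of which 2 were higher and 2 lower. Beside it, 13.9% of expressed genes passed that rule, 6.95% higher and 6.98% lower. The median of the related genes stayed between -0.03 and -0.01. The rescalings shifted all ratios by -0.01 to 0.02 on the log2 scale, and the ratios of 8 members stayed on their side of 1, Ireb2 being the exception at 0.995 to 1.01. The summed light chain ratio was 0.974 to 0.989, with an upper interval bound of 1.001 under TMM and 1.006 without mitochondrial and globin reads. The interval of Slc11a2 excluded 1 under DESeq2 factors, at 0.823 to 0.999, and included it under the other scalings. Adding other listed genes with at least 20% of their words in Ftl1 added none beyond Ftl1-ps1. Depth limits Trf most, and the lack of replicates limits every value. No paired analysis was possible because each group has 1 library.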

Other observations

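Among related genes under the RPKM filter, picked here after their values were seen, Scara5, a scavenger receptor reported to take up ferritin, had 100 reads in wild type and 36 in knockout, 2.73-fold lower (1.85 to 4.11). Ltf, the iron-binding lactoferrin of neutrophil granules, had 4 reads in wild type and 31 in knockout, a ratio of 7.89 (2.79 to 30.8). Tfr2, a second transferrin receptor, had 4 and 16 reads, a ratio of 4.07 (1.31 to 16.7). These are low levels, from 0.0345 to 0.665 RPKM, and rest on 1 library per group.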
